A study of Mus musculus with 22 samples.

Results

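The miRNAs described here are miR-22, miR-221 and miR-222 (probes mmu-miR-22, mmu-miR-221 and mmu-miR-222), which have each been reported to act on the mRNA of estrogen receptor alpha. They were taken by probe name from a NanoString nCounter mouse miRNA panel, and the 3 probes were all present among its 599 endogenous probes. They were chosen for what is known of their targets, at a time when earlier results of these samples were known. The panel was run on total RNA from mammary glands (4th left) of female C57BL/6 mice that were 4 to 5 weeks old at the start and stayed on their diet for 3 weeks. There were 4 diets: basal AIN-93G (5 lanes), 10% flaxseed (6 lanes), 3.67% flaxseed oil (5 lanes, called oil) and 0.15% secoisolariciresinol diglucoside (6 lanes, called SDG). Of 6 mice randomized to each diet, the lanes labelled basal 5 and oil 5 had been excluded by the authors for too few probes above background and were not analysed here. Each lane carried the RNA of 1 mouse per its label, no mouse is labelled with a transgene or drug, and cages are not given. P-values therefore measure the spread between these mice, whatever they shared by housing.

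Estrogen receptor alpha, encoded by Esr1, is the nuclear receptor through which estradiol drives the growth of mammary ducts at puberty. In human breast cancer cells miR-22, miR-221 and miR-222 have been reported to repress its mRNA, and miR-221 and miR-222 are also known for repressing the cell cycle inhibitor p27 and the receptor KIT. SDG is the main lignan of flaxseed, which gut bacteria convert to enterolignans, weak ligands of estrogen receptors, whereas flaxseed oil supplies alpha-linolenic acid. The comparison of diets thus asks whether whole flaxseed, its oil or its lignan moved miRNAs that act on the receptor for which the lignan's products are ligands. Esr1 mRNA was not measured by this panel.

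The mature sequences are shown because miR-221 and miR-222 share the seed, the stretch through which a miRNA pairs with its targets, while miR-22 has another. They are given 5′ to 3′ from RefSeq (GRCm38.p6), in which the 3 members were all matched, with the seed (bases 2 to 8) in capitals.
miR-22-3p: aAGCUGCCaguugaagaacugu
miR-221-3p: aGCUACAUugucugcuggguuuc
miR-222-3p: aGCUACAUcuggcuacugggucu
miR-1928: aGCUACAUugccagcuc
The probe names carry no arm, and the 3p arm is the one that these names designated before arms were written out. miR-221 and miR-222 had the same first 8 bases and 11 identical positions of 23, counted from the 5′ end. Of 1738 mature mouse miRNAs in the RefSeq table, 3 had the seed GCUACAU, the third being miR-1928, and 1 had AGCUGCC. The complements in a target are AUGUAGC for miR-221 and miR-222 and GGCAGCU for miR-22.

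By position, miR-22 stands apart from the other members. Its mature form lies at chr11:75463772-75463793 on the plus strand, inside Mir22hg, a lncRNA gene annotated at chr11:75461539-75466690. The mature forms of miR-221 (chrX:19146307-19146329) and miR-222 (chrX:19146901-19146923) lie on the minus strand of the X chromosome, with 504 bases between their hairpins. miR-221 and miR-222 are known to be cut from 1 primary transcript. The hairpins are shown with the mature form in capitals, which places it in the 3′ arm of each.
miR-22 hairpin: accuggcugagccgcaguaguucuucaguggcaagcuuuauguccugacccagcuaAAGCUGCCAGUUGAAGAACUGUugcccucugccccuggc
miR-221 hairpin: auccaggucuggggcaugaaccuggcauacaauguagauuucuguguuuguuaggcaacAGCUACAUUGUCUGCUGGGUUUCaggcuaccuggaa
miR-222 hairpin: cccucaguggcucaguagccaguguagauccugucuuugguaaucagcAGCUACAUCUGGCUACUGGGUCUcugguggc

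Endogenous counts per lane ranged from 260551 to 762146. Above background means above the lane's own threshold, set at 2 SD over the mean of its 8 negative controls, which came to 17.5 to 66.8 counts. The epithelial markers (7 of 7) and the adipocyte markers miR-378 and miR-365 were above background in every lane, and the adipocyte marker miR-193b in 18 of 22. In 3 lanes the transfer RNA fragment miR-720 took 65.4% (basal 1), 53.7% (flaxseed 3) and 47.4% (SDG 5) of the endogenous count, against 2.37% to 8.61% elsewhere. Flaxseed 3 also stood apart in the housekeeping mRNAs, with a geometric mean of 135 counts against 1070 to 4407 in the other lanes, and in the smooth muscle miRNAs miR-143 and miR-145 (log2 of summed CPM 12.66 against 14.83 to 15.98). Each of the 6 SDG columns of the authors' deposited log2 table correlated best with the counts of another SDG lane (r of at least 0.996) and less with its own (r up to 0.964), whereas the other 16 columns matched their own lane. The SDG lane numbers below follow the count files and are uncertain within that diet. The comparisons of diets do not use them.

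Levels are given as log2 CPM, the count over the TMM-scaled library size of the lane on a common scale, with 1 count added. Probes differ in efficiency, so that the position of a miRNA by signal is not an order of abundance. miR-22 gave one of the strongest signals of the panel, with 2943 to 21624 counts, at least 131.7 times the background threshold of its lane. Its mean over all lanes was 14.80 ± 0.47 log2 CPM (SD, n = 22), the ninth highest (rank 9) of the 254 probes tested. The X-linked pair gave far less signal. miR-221 had 18 to 251 counts and a mean of 7.51 ± 0.44 log2 CPM (rank 167), and miR-222 had 25 to 158 counts and a mean of 6.96 ± 0.49 (rank 191). The SD within diets was 0.43 for miR-22, 0.42 for miR-221 and 0.50 for miR-222, near the median of 0.52 over all tested probes.

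Background limited what could be read from the X-linked pair. miR-221 lay above the threshold in 19 of 22 lanes, with basal 1 (18 counts), flaxseed 1 (53) and flaxseed 2 (58) below it. miR-222 did so in 16 of 22 lanes, and basal 3 (30 counts), flaxseed 1 (30), flaxseed 2 (36), SDG 1 (25), SDG 2 (33) and SDG 4 (40) lay below it. All 5 oil lanes were above background for both. The probe for miR-1928, the remaining miRNA of this seed, was above background in 2 of 22 lanes (10 to 48 counts) and was not tested.

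**Figure D1:**
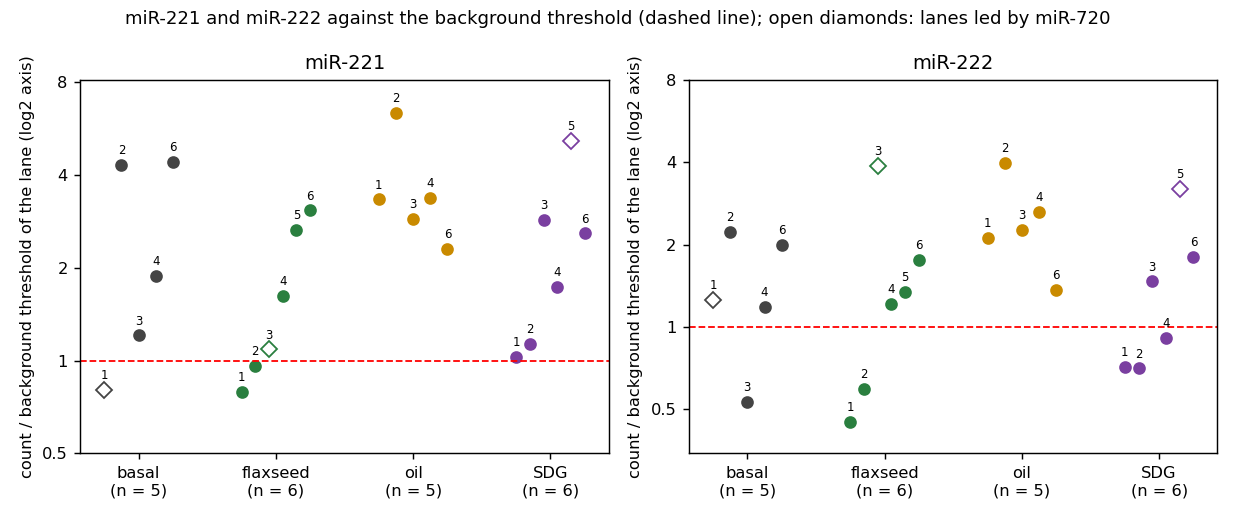
Count of miR-221 (left) and miR-222 (right) divided by the background threshold of the lane, on a log2 axis, by diet. Numbers are lane numbers, open diamonds are the 3 lanes led by miR-720 and the dashed line is the threshold. miR-221 ranges from 0.794 to 6.33 times the threshold and miR-222 from 0.449 to 3.99 times, with every oil lane above the line.

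The levels of miR-22 were similar in the basal, flaxseed and SDG lanes except for 1 flaxseed lane, and were lowest on average in oil lanes. In basal lanes 1, 2, 3, 4 and 6 it stood at 14.26, 15.01, 14.61, 15.07 and 14.57 log2 CPM. In oil lanes 1, 2, 3, 4 and 6 it stood at 14.30, 14.68, 14.28, 14.45 and 14.71. Oil lanes lay within the range of the basal lanes. Among the 6 flaxseed lanes the lowest was 14.71, the median 14.93 and the highest 16.34, and among the 6 SDG lanes the lowest was 14.13, the median 14.95 and the highest 15.26. The highest flaxseed value was that of flaxseed 3, while the other 5 reached no more than 15.09, so that flaxseed and basal lanes overlapped. Diet means were 15.15 ± 0.60 (SD) in flaxseed, 14.81 ± 0.44 in SDG, 14.70 ± 0.33 in basal and 14.48 ± 0.21 in oil lanes, and neighbours in this order differed by less than the larger SD of the pair.

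**Figure D2:**
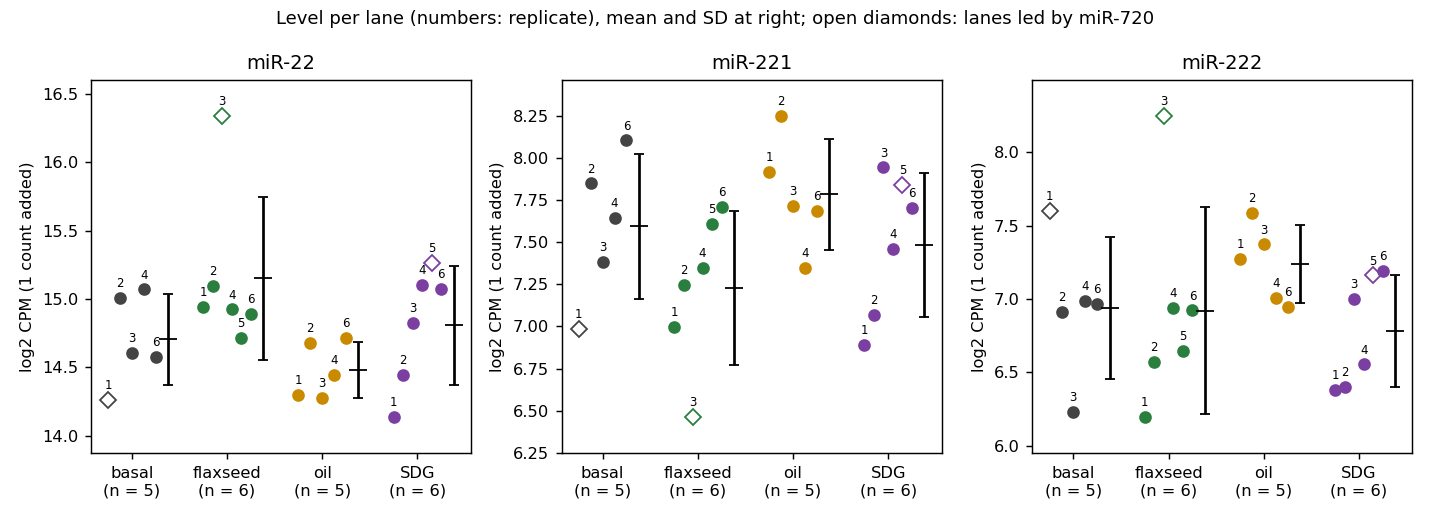
Level of miR-22, miR-221 and miR-222 in each lane (log2 CPM, 1 count added) by diet, with the mean and SD of the diet at the right of its points. Numbers are lane numbers and open diamonds are the 3 lanes led by miR-720. On this TMM scale flaxseed 3 is the highest lane for miR-22 (16.34) and miR-222 (8.25) and the lowest for miR-221 (6.46).

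miR-221 was lower on average in flaxseed lanes and higher in oil lanes, with overlap in every pair of diets. In basal lanes 1, 2, 3, 4 and 6 it stood at 6.99, 7.85, 7.39, 7.65 and 8.11 log2 CPM. In oil lanes 1, 2, 3, 4 and 6 it stood at 7.92, 8.25, 7.72, 7.35 and 7.69. The flaxseed lanes ran from 6.46 over a median of 7.30 to 7.71, and the SDG lanes from 6.89 over a median of 7.58 to 7.95. Of 6 flaxseed lanes 3 lay below every oil lane. These were flaxseed 1, 2 and 3, at 0.794, 0.958 and 1.09 times their background thresholds, so the separation rests on lanes at or near background. How many of all tested probes separate in this way was not counted. Diet means ordered as oil (7.79 ± 0.33), basal (7.60 ± 0.43), SDG (7.48 ± 0.43) and flaxseed (7.23 ± 0.46), and neighbours differed by less than the larger SD of the pair.

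miR-222 was highest on average in oil lanes. In basal lanes 1, 2, 3, 4 and 6 it stood at 7.60, 6.91, 6.23, 6.99 and 6.97 log2 CPM. In oil lanes 1, 2, 3, 4 and 6 it stood at 7.27, 7.59, 7.37, 7.01 and 6.94. The flaxseed lanes ran from 6.19 over a median of 6.78 to 8.25, and the SDG lanes from 6.38 over a median of 6.78 to 7.19. On this scale flaxseed 3, at 68 counts and a TMM factor of 0.377, was the highest lane of the study, and the other 5 flaxseed lanes lay below every oil lane. Of these 5, flaxseed 1 and flaxseed 2 were below background, at 0.449 and 0.595 times the threshold. How many of all tested probes separate in this way on this scale was not counted. Diet means were 7.24 ± 0.27 in oil, 6.94 ± 0.48 in basal, 6.92 ± 0.70 in flaxseed and 6.78 ± 0.38 in SDG lanes.

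The place of flaxseed 3 depended on the scaling. As CPM of the endogenous total without TMM, which counts miR-720 in the total, its miR-22 was 31040, within the 30096 to 39430 of the other flaxseed lanes, and its miR-222 was 112.1, within 83.7 to 130.5. On that scale oil lanes had 22890 to 29668 for miR-22 and 133.5 to 215.8 for miR-222. Flaxseed and oil lanes thus did not overlap for miR-22, higher in flaxseed, and for miR-222, lower in flaxseed. The same held for 13 of the 254 tested probes (5.12%) in either direction. For miR-222, flaxseed 1 and flaxseed 2 were below background, at 0.449 and 0.595 times the threshold. The edgeR fit with total count scaling gave log2 fold changes of 0.35 ± 0.31 for miR-22 (adjusted p = 0.695) and -0.65 ± 0.24 for miR-222 (adjusted p = 0.206) in flaxseed against oil. In flaxseed 3 miR-221 was 31.3 CPM, below the other flaxseed lanes (147.9 to 217.7) on this scale too. That value came from 19 counts, 1.09 times the background threshold of the lane.

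Comparisons of diets were read from an edgeR quasi-likelihood fit of all 22 lanes, with p-values adjusted by Benjamini-Hochberg over the 254 tested probes. None of the 3 members was called in any comparison, and 0 of 254 probes (0.00%) were called in each of them. An unadjusted p under 0.05 was reached by 22 probes (8.66%) for flaxseed against basal, 41 (16.1%) for oil against basal, 13 (5.12%) for SDG against basal and 60 (23.6%) for flaxseed against oil. It was reached by 13 (5.12%) for flaxseed against SDG and 19 (7.48%) for oil against SDG. DESeq2 called 6 probes for oil against basal and 30 for flaxseed against oil, none of them a member. The 6 comparisons share lanes and are not independent of each other.

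Whole flaxseed against basal gave a log2 fold change of 0.54 ± 0.28 (SE; n = 6 and 5) for miR-22, with a 95% interval of -0.05 to 1.13 (adjusted p = 0.554 in edgeR). Without flaxseed 3 it was 0.16 ± 0.20. With the 3 miR-720-led lanes left out it was 0.0086 ± 0.16, so that the difference rested on those lanes. For miR-221 the log2 fold change was -0.37 ± 0.25 (95% interval -0.90 to 0.17). For miR-222 it was 0.09 ± 0.31 (95% interval -0.57 to 0.74) and turned to -0.31 ± 0.24 without flaxseed 3.

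Against basal, neither component of flaxseed separated the lanes. For oil the log2 fold changes were -0.24 ± 0.29 for miR-22 (95% interval -0.86 to 0.37), 0.17 ± 0.26 for miR-221 (-0.39 to 0.72) and 0.29 ± 0.32 for miR-222 (-0.38 to 0.97). For SDG they were 0.12 ± 0.28 for miR-22 (-0.46 to 0.71), -0.12 ± 0.25 for miR-221 (-0.66 to 0.41) and -0.16 ± 0.31 for miR-222 (-0.81 to 0.50). The smallest adjusted p of these 6 values in edgeR was 0.712. The signs of the SDG values were not stable: miR-22 turned to -0.09 ± 0.16 with those 3 lanes left out, miR-221 to 0.03 without basal 6 and miR-222 to 0.0071 without basal 1.

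For miR-22 and miR-221 the largest pairwise difference of diets was between whole flaxseed and its oil, and for miR-222 it was between oil and SDG. For miR-22 in flaxseed against oil the log2 fold change was 0.78 ± 0.28 (95% interval 0.18 to 1.38), a fold of 1.72 (adjusted p = 0.107 in edgeR). Of 6 flaxseed lanes 5 lay above every oil lane, and the remaining lane, flaxseed 5, lay level with the highest oil lane at 14.71. The share of all tested probes with 5 of 6 flaxseed lanes beyond every oil lane was not counted. An unadjusted p under 0.05 with a higher level in flaxseed was reached by 38 of 254 probes (15.0%) in this comparison. Without flaxseed 3 the value for miR-22 was 0.39 ± 0.20 (adjusted p = 0.238), and leaving out all 3 miR-720-led lanes it was 0.36 ± 0.15 (adjusted p = 0.115). Both values were above 0 and smaller than that of all lanes. The sum of 5 striated muscle markers also separated these diets on the TMM scale. Its log2 of summed CPM was 12.66 to 15.85 in flaxseed and 8.66 to 11.98 in oil lanes. It was not computed as CPM of the endogenous total, and flaxseed 3 has a TMM factor of 0.377. Nor was the share of tested probes that separate these diets on the TMM scale counted. In this sum miR-1 reached 96794 counts and miR-133a 5672. The markers miR-133b and miR-499 were each above background in 7 of 22 lanes. Singly, 4 of the 5 markers lay above 0 in flaxseed against oil and 1 below. The part of these markers in the values of the members was not tested.

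The X-linked pair lay the other way in the same comparison. For miR-221 the log2 fold change of flaxseed against oil was -0.53 ± 0.25 (95% interval -1.07 to -0.0033, adjusted p = 0.203 in edgeR). An unadjusted p under 0.05 with a lower level in flaxseed was reached by 22 of 254 probes (8.66%). For miR-222 it was -0.21 ± 0.30, and flaxseed 3 decided its size: without that lane it was -0.61 ± 0.24 (adjusted p = 0.132). Leaving out all 3 miR-720-led lanes it was -0.65 ± 0.21 (adjusted p = 0.0521), with 18 probes called in that fit and neither miR-221 nor miR-222 among them. Flaxseed 1 and flaxseed 2 were below background for both miRNAs, and their counts cannot be told from background there.

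**Figure D3:**
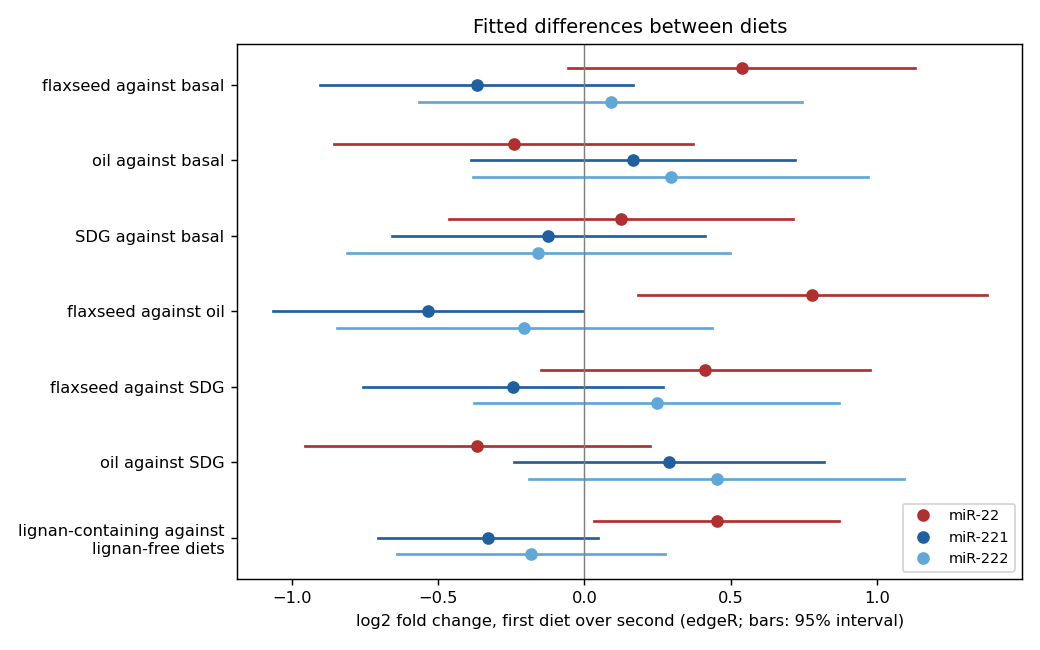
Log2 fold change of miR-22, miR-221 and miR-222 in the 6 pairwise comparisons of diets and in the comparison of lignan-containing with lignan-free diets, from edgeR. Points are estimates for the first diet over the second and bars are 95% intervals. The intervals leave out 0 for miR-22 and miR-221 in flaxseed against oil and for miR-22 in the lignan comparison, and 0 of these values passed adjustment.

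The differences of flaxseed and oil from SDG did not pass the test either. Flaxseed against SDG gave 0.41 ± 0.27 for miR-22, which was 0.04 ± 0.19 without flaxseed 3, -0.24 ± 0.24 for miR-221 and 0.25 ± 0.30 for miR-222, which turned to -0.15 ± 0.23 without that lane. Oil against SDG gave -0.37 ± 0.28 for miR-22, 0.29 ± 0.25 for miR-221 and 0.45 ± 0.31 for miR-222. The smallest adjusted p among these 6 values in edgeR was 0.784.

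Flaxseed and SDG both supply the lignan, and the basal and oil diets do not, as the diets are named. The mean of the lignan-containing diets minus the mean of the lignan-free diets was 0.45 ± 0.20 for miR-22 on the log2 scale (12 and 10 lanes, adjusted p = 0.370 in edgeR). In this comparison 31 of 254 probes (12.2%) had an unadjusted p under 0.05, 17 (6.69%) of them with a higher level as for miR-22, and 0 (0.00%) were called. Without flaxseed 3 the value for miR-22 was 0.26 ± 0.14, and leaving out all 3 miR-720-led lanes it was 0.13 ± 0.11. For miR-221 it was -0.33 ± 0.18 (adjusted p = 0.453 in edgeR) and for miR-222 -0.18 ± 0.22. With positive control scaling miR-22 turned to -0.06, where the median of all probes lay at -0.38.

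The test for any difference between the 4 diets gave an adjusted p = 0.391 for miR-22, adjusted p = 0.536 for miR-221 and adjusted p = 0.816 for miR-222 in edgeR. Of 254 probes 36 (14.2%) had an unadjusted p under 0.05 in this test, and no member was among them.

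miR-221 and miR-222 come from 1 transcript, and their ratio within a lane needs no scaling between lanes. In 20 lanes miR-222 had fewer counts than miR-221, with a log2 ratio (1 count added) of -1.15 to -0.34. In flaxseed 3 the order was turned, with 68 counts of miR-222 and 19 of miR-221 (log2 ratio 1.79). Their 95% Poisson intervals (52.8 to 86.2 and 11.4 to 29.7) did not overlap. There miR-221 was only 1.09 times the background threshold, so the size of this ratio is uncertain. In basal 1 the counts were 28 and 18 (log2 ratio 0.61), but their 95% Poisson intervals (18.6 to 40.5 and 10.7 to 28.4, counting error only) overlapped and miR-221 was below background. In 7 of 22 lanes at least 1 of the pair was below background, and the ratio there is not a measured one. Flaxseed 3 and basal 1 are lanes led by miR-720, and the remaining lane of that kind, SDG 5, had 57 and 92 counts (log2 ratio -0.68). By diet the mean was -0.31 ± 1.04 (SD) for flaxseed, -0.55 ± 0.19 for oil, -0.66 ± 0.74 for basal and -0.70 ± 0.19 for SDG. Across 7 comparisons of diets the adjusted p of the two-sided exact permutation test was 1.0 throughout, and the smallest unadjusted p was 0.190 (oil against SDG).

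Across the 22 lanes the levels of miR-221 and miR-222 had a Pearson r of 0.06 (permutation p = 0.776, adjusted over the 3 pairs of members 0.776) and a Spearman rho of 0.31 (permutation p = 0.156, adjusted 0.469). Leaving out SDG 1 and flaxseed 3, the lanes farthest from the median of miR-221, gave r = 0.50 (permutation p = 0.0262). Leaving out the 3 lanes led by miR-720 gave r = 0.80 and rho = 0.72 over 19 lanes (permutation p = 6e-05 and 0.00064). Within diets r was 0.90 over the 6 SDG lanes and -0.60 over the 6 flaxseed lanes, which include flaxseed 3. Over all 22 lanes r was 0.59 with total count, 0.74 with positive control and 0.85 with housekeeping scaling, so that the value depended on the scaling as well as on those lanes. For miR-22, r was -0.25 with miR-221 (permutation p = 0.254, adjusted 0.381) and 0.36 with miR-222 (permutation p = 0.101, adjusted 0.304). Without flaxseed 3 and SDG 1, also the lanes farthest from the median of miR-22, these became 0.09 and -0.29.

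**Figure D4:**
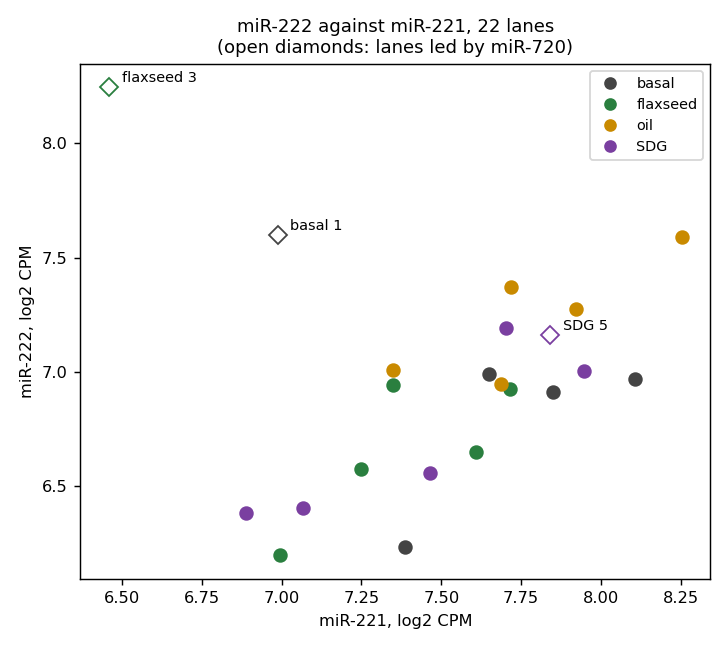
Level of miR-222 against miR-221 in each of 22 lanes (log2 CPM), coloured by diet, with the 3 lanes led by miR-720 as open diamonds. Of the labelled lanes, flaxseed 3 lies highest and farthest left. Basal 1 lies at 6.99 for miR-221 and 7.60 for miR-222. SDG 5 lies among the other 19, over which r was 0.80.

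Cell types other than epithelium contribute to a whole gland, and in bulk RNA fewer cells of a type and less RNA per cell cannot be told apart. The summed level of the lymphocyte and myeloid markers (miR-150, miR-142-3p, miR-142-5p, miR-342-3p and miR-223, 5 of 5 above background in every lane) set 6 lanes apart. Its log2 was 15.77 in oil 1, 16.85 in oil 3 and 16.60 in oil 4. It was 16.25 in SDG 1, 16.79 in SDG 2 and 15.23 in flaxseed 3, against 13.34 to 13.99 in the other 16 lanes. These sums are on the TMM scale, where flaxseed 3 has a factor of 0.377, and were not computed as CPM of the endogenous total. The 3 oil lanes and 2 SDG lanes of this set were also those with the lowest miR-22 of their diets. They stood at 14.28 to 14.45 (oil) and at 14.13 and 14.45 log2 CPM (SDG). Flaxseed 3, the remaining lane of this set, had the highest miR-22 of all 22 lanes on the TMM scale, at 16.34. The sum weighs the 5 markers unequally, with up to 50442 counts for miR-142-3p and 21966 for miR-150 against 220 for miR-142-5p. The markers did not all move together: for oil against basal 3 lay above 0 and 2 below. With this marker level as a covariate, miR-22 in flaxseed against oil was 0.74 ± 0.30 (adjusted p = 0.163 in edgeR) and miR-221 was -0.82 ± 0.24 (adjusted p = 0.0870). The covariate was added after the values had been seen. The part of these cells in the levels was not tested further.

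**Figure D5:**
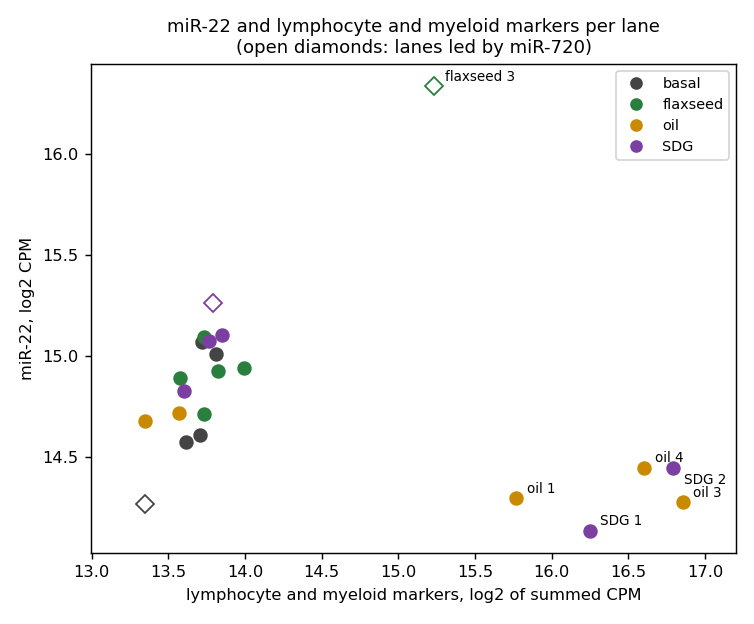
Level of miR-22 (log2 CPM) against the summed level of 5 lymphocyte and myeloid markers (log2 of summed CPM) in each of 22 lanes, coloured by diet, with the lanes led by miR-720 as open diamonds. The 6 labelled lanes have marker levels above 15, and 5 of them, from oil and SDG, have miR-22 between 14.13 and 14.45. The remaining one, flaxseed 3, has the highest miR-22, at 16.34.

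By Pearson r of log2 CPM over the 22 lanes, the probes most like miR-22 were miR-30a (r = 0.92), miR-301b (0.90) and miR-138 (0.88). Over the 19 lanes not led by miR-720 these took ranks 11, 12 and 18 of 253 probes, with r of 0.83, 0.83 and 0.80. For miR-221 they were miR-497 of the miR-15/16 seed family (r = 0.88), miR-26a (0.81) and let-7f (0.80). For miR-222 they were miR-203, known from epithelial differentiation (r = 0.81), miR-328 (0.78) and miR-361 (0.76). Over the 19 lanes not led by miR-720 the probes named for miR-221 took ranks 3, 7 and 10. Those named for miR-222 took ranks 14, 10 and 4, with r of 0.70, 0.75 and 0.83. Among 253 probes miR-222 held rank 102 for likeness to miR-221, and rank 4 without the 3 lanes. All these values share the lanes and their scaling factors and are a description.

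Other miRNAs that act on the estrogen receptor were read in the same way. Of 12 miRNAs reported to repress ESR1 mRNA in human breast cancer cells, 10 were tested, and miR-18b and miR-302c were not. Among the 10, miR-20b was read by a probe it shares with miR-20a. None of the 10 was called in any comparison. For flaxseed against basal 5 of 10 lay above 0, as did 55.1% of all tested probes, with a median log2 fold change of -0.02 against 0.04 over all probes. For SDG against basal 6 lay above 0 (all probes 49.2%), with a median of 0.12 against -0.01. For oil against basal 6 did (all probes 47.6%), with a median of 0.17 against -0.03. In the lignan comparison 3 lay above 0 (all probes 53.9%), with a median of -0.11 against 0.03.

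The members of this list with an unadjusted p under 0.05 against basal were miR-19a, miR-19b and miR-206. For oil against basal, miR-19a and miR-19b of the miR-17/92 cluster had log2 fold changes of 0.71 ± 0.31 and 0.70 ± 0.29 (adjusted p = 0.282 and 0.257 in edgeR). miR-206, a striated muscle miRNA, stood at -1.70 ± 0.82 for SDG against basal (adjusted p = 0.839 in edgeR) and was above background in 12 of 22 lanes. The striated muscle markers, to which miR-206 belongs, ran from 8.66 to 17.54 (log2 of summed CPM) between lanes, with 17.54 in basal 4. The smallest p of this list for any diet belonged to miR-19b (adjusted p = 0.297 in edgeR) and let-7b (adjusted p = 0.369).

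Of 5 miRNAs reported to fall with estradiol in MCF-7 breast cancer cells (miR-21, miR-26a, miR-26b, miR-181a and miR-181b), the 5 were all tested and 0 were called, miR-181b by a probe it shares with miR-181d. miR-26a stood at 0.79 ± 0.38 for oil against basal (adjusted p = 0.303 in edgeR), with an unadjusted p under 0.05. For any diet, miR-26a and miR-181a had the smallest p of this list. In the lignan comparison 3 of the 5 lay above 0, with a median of 0.00 against 0.03 over all probes.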

How the data were processed

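Per the labels, total RNA of 1 gland per mouse was extracted with a mirVana kit and counted on a NanoString nCounter panel. Per the file headers, values deposited for each lane are raw probe counts, unscaled by the authors. The authors' deposited table of log2 values (238 miRNAs, scaled and background-subtracted by a rule not given in the sources used here) served as an alternative. Depth was 260551 to 762146 endogenous counts per lane. Lanes were grouped by the diet in the labels.

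The 254 of 599 endogenous probes above background (negative control mean plus 2 SD) in at least 5 of 22 lanes were tested. They were fitted in edgeR 4.0.16 (R 4.3.3; quasi-likelihood, TMM, diet as factor, threshold of 0.05 on Benjamini-Hochberg adjusted p). SE was taken as |log2 fold change| divided by √F. DESeq2 1.42.0, limma 3.58.1 and SciPy 1.17.1 served alternatives and permutation tests. The fit was tested on simulated counts in which 200 of 254 probes were given changes in SDG against basal. It called 58.5% of the changes of log2 size 1 and 100% of those of size 2. All simulated probes had 1 common spread, and with 200 changed probes the adjustment is milder than where few probes change. These shares therefore need not hold for the data or for a change in a single member. The smallest chi-square per degree of freedom between lanes was 24.2, so no lane was a copy of another. Alternatives were other scalings, filters, background subtraction, tools, a replicate block, and lanes left out. The members, lists and lanes led by miR-720 were chosen with earlier results of these data known. Named miRNAs were the members, probes of their seed, the 3 probes most correlated with each member, and list miRNAs with unadjusted p under 0.05 against basal or in the lignan comparison or with the 2 smallest p for any diet.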

Additional observations from a re-analysis of the deposited data

Results flagged for a closer look

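Lanes were examined in 16 groups (3 members and the ratio of miR-222 to miR-221, in 4 diets). Of these groups, 4 held a lane far from the others of its diet by Dixon's criterion. Chance gives about 1 in 20 for independent groups, and these groups are not independent. The ratio uses the counts of miR-221 and miR-222, and flaxseed 3 recurs among the values. In flaxseed 3 miR-22 had a level of 16.34 log2 CPM where the remaining flaxseed lanes had 14.71 to 15.09, and miR-222 one of 8.25 where they had 6.19 to 6.94. The log2 ratio of miR-222 to miR-221 was 1.79 in flaxseed 3, against -0.96 to -0.41, and 0.61 in basal 1, against -1.15 to -0.66 in the other basal lanes. In basal 1 miR-221 (18 counts) and in basal 3, the lowest of these, miR-222 (30 counts) were below background, so that neither ratio is a measured one. The ratio in flaxseed 3 rests on 19 counts of miR-221, 1.09 times the background threshold, and its size is uncertain. The levels of miR-22 and miR-222 in flaxseed 3 stood apart with TMM scaling (factor 0.377) but not as CPM of the endogenous total, at 31040 (30096 to 39430 in the remaining flaxseed lanes) and 112.1 (83.7 to 130.5). Both lanes were led by miR-720, with 53.7% and 65.4% of their endogenous count, and its part in these values was not tested.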

How the results depend on the processing

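The values of the members changed with the scaling and with the lanes led by miR-720, and the counts of probes called with these and with the tool. Where no cause is named, the cause was not tested.

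Housekeeping scaling moved the median of all probes in flaxseed against basal to 1.39, where flaxseed 3 has few housekeeping counts. It called 67 probes there and 36 for any diet, with miR-22 at 2.58 (adjusted p = 0.0440) and miR-222 at 2.26 (adjusted p = 0.0496). miR-221 turned to 0.45 in flaxseed against basal, 0.29 in SDG against basal, 0.050 in flaxseed against oil (median of all probes 1.15), 0.16 in flaxseed against SDG and 0.17 in the lignan comparison. miR-222 turned to 0.45, 1.54 and 0.99 in SDG against basal, flaxseed against oil and the lignan comparison. With flaxseed 3 left out as well (added after seeing the data), miR-22 in flaxseed against basal was 0.37 with 0 probes called, and in flaxseed against SDG miR-22 was -0.23 and miR-222 was -0.35.

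Positive control scaling, which ignores differences in RNA between lanes, called 5 probes in flaxseed against oil, 17 in oil against SDG, 6 in the lignan comparison and 6 for any diet. miR-222 was among the 17, at 1.24 (adjusted p = 0.0382, median of all probes 0.79). miR-22 turned to 0.0083, -0.37, 0.38 and -0.063 in oil against basal, SDG against basal, oil against SDG and the lignan comparison, miR-221 to 0.29 in flaxseed against SDG and miR-222 to -0.074 in flaxseed against basal. Total count scaling turned miR-222 to 0.067 in SDG against basal and -0.061 in flaxseed against SDG.

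Without the 3 lanes led by miR-720, 1, 18, 1, 1 and 1 probes were called in oil against basal, flaxseed against oil, oil against SDG, the lignan comparison and for any diet, none of them a member. miR-22 turned to -0.089 in SDG against basal, and miR-222 to -0.21 in flaxseed against basal and -0.12 in flaxseed against SDG. The log2 ratio of miR-222 to miR-221 turned to 0.27 in SDG against basal, -0.18 in flaxseed against oil and -0.019 in flaxseed against SDG.

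DESeq2 called 6, 30 and 6 probes in oil against basal, flaxseed against oil and the lignan comparison, no filter 1 in oil against basal, and the stricter filter 6 in flaxseed against oil and 1 in the lignan comparison. DESeq2 size factors and the lymphocyte and myeloid covariate (added after seeing the data) called 1 each in the lignan comparison. The covariate turned miR-221 in SDG against basal to 0.059. With the negative control mean subtracted, miR-222 in flaxseed against basal turned to -0.032 and the ratio to -0.21 and -0.18 in flaxseed against oil and the lignan comparison. In the deposited log2 table these were -0.19 for miR-222 in flaxseed against basal and -0.064 for the ratio in the lignan comparison.

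The correlation of miR-221 with miR-222 was 0.85 with housekeeping, 0.74 with positive control and 0.59 with total count scaling (permutation p = 1e-05, the smallest the resamples can give, 0.0001 and 0.00268), 0.80 without the 3 miR-720-led lanes and 0.50 without the 2 farthest lanes. A scaling factor shared by both miRNAs enters these values.

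With each lane left out in turn, 0 to 7 probes were called in flaxseed against oil and 0 to 1 in the lignan comparison. miR-221 ran from -0.24 to 0.027 in SDG against basal, and miR-222 from -0.31 to 0.22 in flaxseed against basal, -0.30 to 0.0071 in SDG against basal and -0.15 to 0.38 in flaxseed against SDG. The ratio ran from -0.070 to 0.67 (flaxseed against basal), -0.016 to 0.42 (oil against basal), -0.17 to 0.27 (SDG against basal), -0.18 to 0.37 (flaxseed against oil), -0.024 to 0.53 (flaxseed against SDG) and -0.11 to 0.23 (lignan comparison).

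Lanes of the same number in different diets did not deviate together (mean r = -0.0043, with 12 of 31 pairs over 0.1, and 3 of 22 lanes most like a lane of their own number), so the numbers were not taken as pairs. Pairs with SDG rest on lane numbers that are uncertain within that diet, as does the block. With the replicate block, miR-222 in flaxseed against basal turned to -0.012, and the counts of calls stayed at 0. The file headers gave no cartridge or batch, and the planned fit by cartridge was not run. Over all alternatives, 795 of 876 values were classed as unchanged. For a fold change, ratio or correlation this means the same sign and side of the threshold, and for a count of probes called an equal count. No member was called in the main fit, so keeping its side means only that it stayed uncalled. Counts near background limit miR-221 and miR-222.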
